A study of Mus musculus with 36 samples.

Results

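The catenins described here are 6 genes of the mouse whose proteins sit at the inner face of cell-cell junctions. The density of 2 kinds of DNA lesion over them was described in 6 tissues of old mice. The genes were taken by symbol and were chosen with the SSB levels of these same libraries known. Ctnna2 was chosen since it was among the genes that differed in SSB density between tissues, and the other 5 were added from its family. All 6 of 6 were found among the 49943 genes counted. Of them, Ctnna2, Ctnna3 and Ctnnd2 are very long and Ctnna1, Ctnnd1 and Ctnnb1 are short beside them and widely expressed, and this contrast of length is the one drawn below. Among protein-coding genes, the lengths of Ctnna1, Ctnnd1 and Ctnnb1 stand at percentiles 92.5, 84.1 and 62.9, so short is meant only within the family.

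The libraries came from male C57BL/6J mice aged 24 months, 2 animals per tissue, and covered bone marrow, sperm, liver, heart, brain and, from blood, mononuclear cells (PBMCs). The protocol names 2 mice, and the labels do not tie a sample to either of them across tissues. No allele, transgene or treatment was named in the labels, and every library shares this strain, sex and age, so no comparison by age was possible here. Red cells of the marrow were lysed, PBMCs were separated on a density gradient, and sperm were collected as motile cells of the epididymal tail. Genomic DNA of sperm was purified with a different kit from that of the other 5 tissues, so sperm and kit cannot be told apart in any value below. Each sample gave 1 library of single-strand breaks (SSBs, an interruption of 1 strand of the helix) and 1 of apurinic or apyrimidinic sites (AP sites, where a base has been lost from the sugar), 24 libraries in all with 2 per tissue and lesion. The lists held 225011 to 1041983 positions per SSB library and 460719 to 963258 per AP library. The p-values measure the spread between these samples only, which may be technical. No RNA values were used, so the tissues could not be checked against their marker genes.

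Classical cadherins hold neighbouring cells together, and their tails bind the catenins. Beta-catenin (Ctnnb1) binds the cadherin tail and, when it is not degraded, enters the nucleus as the effector of canonical Wnt signalling. The alpha-catenins link beta-catenin to actin: alpha-E-catenin (Ctnna1) in most tissues, alpha-N-catenin (Ctnna2) in neurons and alpha-T-catenin (Ctnna3) best known from heart. The delta-catenins p120 (Ctnnd1), found widely, and delta-catenin (Ctnnd2), mainly neuronal, bind the cadherin next to the membrane and set how long it stays there. The genes lie on 6 chromosomes. In RefSeq coordinates of GRCm38.p6, Ctnna2 covers 1098179 bp (chr6:76881637-77979815, minus strand), Ctnna3 1573570 bp (chr10:63430098-65003667, plus strand) and Ctnnd2 856811 bp (chr15:30172534-31029344, plus strand). Ctnnd1 covers 71882 bp (chr2:84587096-84658977, minus strand), Ctnnb1 27108 bp (chr9:120933400-120960507, plus strand) and Ctnna1 135875 bp. Exons were not separated from introns, since only gene spans were used.

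The 250 bases before the first listed start of 4 of the genes are shown because lesions were mapped to single nucleotides, so that a reader can see what the counted unit is. Capitals mark each nucleotide at which any of the 24 libraries listed an SSB or an AP site on either strand. The stretches are RefSeq GRCm38.p6 sequence, 5′ to 3′ on the gene's strand, at chr6:77979668-77979917 (minus) for Ctnna2, chr10:63429848-63430097 (plus) for Ctnna3, chr15:30172284-30172533 (plus) for Ctnnd2 and chr9:120933150-120933399 (plus) for Ctnnb1.
Ctnna2: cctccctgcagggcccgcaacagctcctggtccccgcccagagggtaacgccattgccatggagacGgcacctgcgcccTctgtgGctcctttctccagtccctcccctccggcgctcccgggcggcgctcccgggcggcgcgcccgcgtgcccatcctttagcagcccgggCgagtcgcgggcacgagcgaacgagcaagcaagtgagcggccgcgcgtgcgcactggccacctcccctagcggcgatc
Ctnna3: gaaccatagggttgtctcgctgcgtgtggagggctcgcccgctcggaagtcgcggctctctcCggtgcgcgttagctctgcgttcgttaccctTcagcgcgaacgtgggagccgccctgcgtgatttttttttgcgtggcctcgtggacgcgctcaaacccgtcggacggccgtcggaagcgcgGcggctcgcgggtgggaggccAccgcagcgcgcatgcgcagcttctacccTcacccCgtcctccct
Ctnnd2: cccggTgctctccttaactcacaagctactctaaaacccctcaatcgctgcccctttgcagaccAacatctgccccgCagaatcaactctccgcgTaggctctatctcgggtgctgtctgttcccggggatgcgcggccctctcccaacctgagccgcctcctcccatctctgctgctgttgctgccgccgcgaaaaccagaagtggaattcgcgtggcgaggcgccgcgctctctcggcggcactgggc
Ctnnb1: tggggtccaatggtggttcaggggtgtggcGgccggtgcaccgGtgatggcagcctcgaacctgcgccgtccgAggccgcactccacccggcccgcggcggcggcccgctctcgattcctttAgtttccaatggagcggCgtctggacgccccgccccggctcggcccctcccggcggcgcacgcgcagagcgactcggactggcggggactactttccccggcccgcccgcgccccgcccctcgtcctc

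In these stretches 4 nucleotides were marked for Ctnna2 (all SSBs), 6 for Ctnna3 (4 SSBs and 2 AP sites), 4 for Ctnnd2 (1 SSB and 3 AP sites) and 5 for Ctnnb1 (2 SSBs and 3 AP sites). Each marked nucleotide was listed in 1 library only. The stretches are rich in G and C, from 62.8% in Ctnnd2 to 74.8% in Ctnnb1. Over the 300-base promoter windows of RefSeq (250 before and 50 after each start) of the 5 members that have one, AP sites fell on a purine in 14 of 20 listed positions, read on the strand given in the files, and SSBs in 7 of 16. Across the 32851 such windows of all genes, A and G made up 38.5% and 36.2% of AP positions, and C and G 38.9% and 35.5% of SSB positions. With so few positions in a member's promoter window, no comparison between tissues was possible there.

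Over the whole genes, the density of each lesion was expressed as LPKM, the lesions per kb of gene scaled to library depth (listed positions times 1e+09, over gene length in bp and over all positions of the library). On average over the 12 libraries of a lesion, LPKM-SSB was lowest in Ctnna3 (0.321) and highest in Ctnnb1 (0.913). Ctnna2 (0.378), Ctnna1 (0.399), Ctnnd2 (0.473) and Ctnnd1 (0.598) lay between them. The order was the same for AP sites, with 0.331 in Ctnna3, 0.388 in Ctnna2, 0.397 in Ctnna1, 0.509 in Ctnnd2, 0.525 in Ctnnd1 and 0.910 in Ctnnb1. Ctnnb1 had the highest value of the 6 genes in 9 of 12 SSB and 11 of 12 AP libraries, and Ctnna3 the lowest in 9 of 12 of each. Neighbours in this order overlapped: Ctnna1 ranged from 0.273 to 0.529 in SSB libraries and Ctnna2 from 0.262 to 0.510. Among 3230 genes with a mean of at least 20 SSB positions per library, the LPKM-SSB of Ctnna3 stood at percentile 8.95 of their values. A long gene reaches 20 positions at a lower density than a short one, so this percentile depends in part on length. Pooled over all genes longer than 500 kb, mean LPKM-SSB was 0.330 in bone marrow and 0.407 in sperm, where Ctnna3 had 0.274 and 0.333. Ctnnb1, with 138 SSB positions over the 12 libraries, is not among the 3230 genes. Its LPKM-SSB would fall at percentile 90.2 of their values, which is not its standing among genes of like coverage.

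The precision differed widely between members. Ctnna3 held 2795 SSB and 4569 AP positions in all 12 libraries of each lesion, Ctnna2 2310 and 3737, and Ctnnd2 2220 and 3832. By contrast Ctnna1 held 297 and 464, Ctnnd1 242 and 324, and Ctnnb1 138 and 217. Ctnnd1 shows what this does to a single value: its LPKM-SSB in PBMCs was 0.927 in replicate 1, from 15 positions, and 0.273 in replicate 2, from 6, with 95% Poisson intervals of 0.519 to 1.53 and 0.1002 to 0.594 that overlap. These intervals cover counting error only. Few positions were seen repeatedly. At most 1.53% of the nucleotides listed in a member recurred in 2 or more libraries of a lesion, and no nucleotide was listed in more than 3 libraries or with a count above 2.

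**Figure D1:**
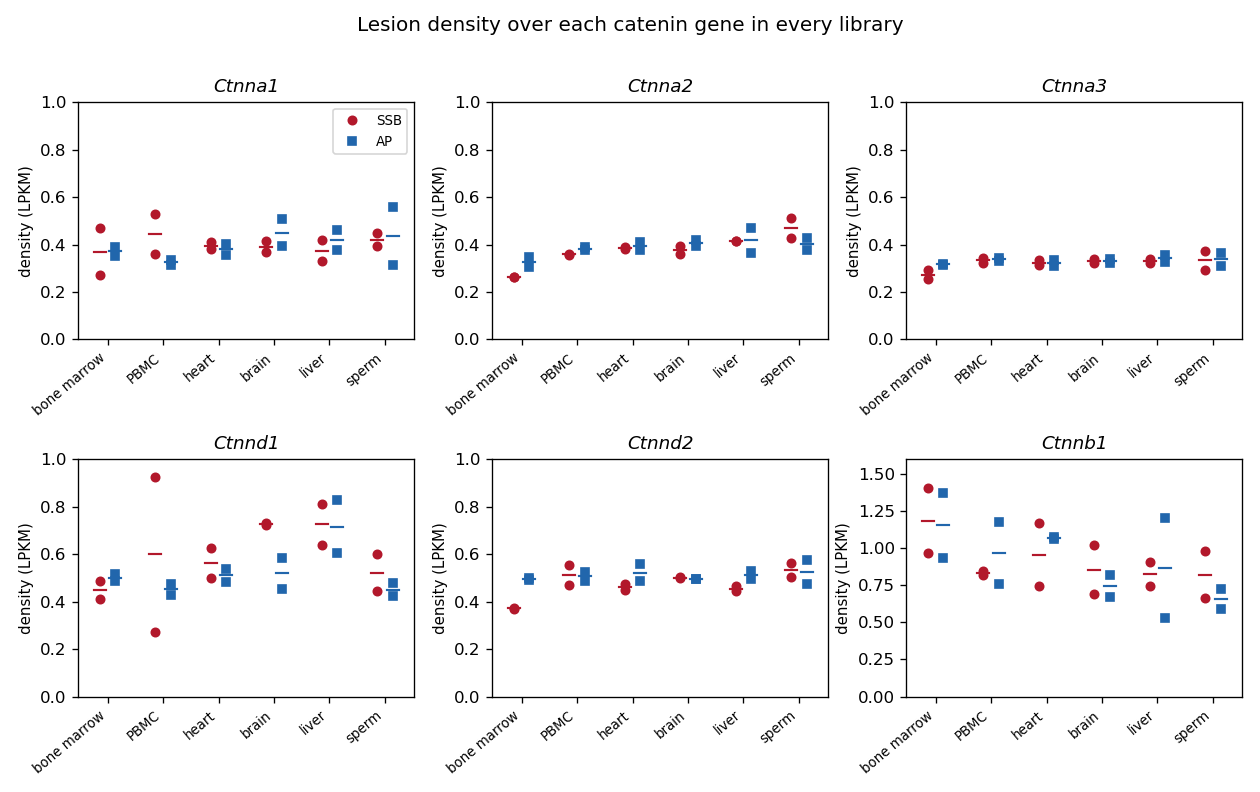
Density of SSBs (circles) and AP sites (squares) in LPKM over each catenin gene, with 1 point per library, 2 per tissue, and a bar at the mean; the axis of Ctnnb1 runs higher than the others. In SSB libraries the bone marrow points of Ctnna2 (0.264 and 0.262) lie below all other tissues and its sperm points (0.427 and 0.510) above them, whereas the short genes scatter between replicates.

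Among the long genes, Ctnna2 varied most between tissues in SSBs. Its LPKM-SSB was 0.264 and 0.262 in bone marrow, 0.360 and 0.357 in PBMCs, 0.360 and 0.393 in brain, 0.388 and 0.380 in heart, 0.416 and 0.415 in liver, and 0.427 and 0.510 in sperm (replicates 1 and 2). Bone marrow was below and sperm above every library of the other tissues, and the mean in sperm was 1.78 times that in bone marrow. These levels chose the members and carry no test. The neighbouring means of brain (0.377 ± 0.023, SD, n = 2) and heart (0.384 ± 0.0053) did not differ beyond their spread. In the test across tissues that chose Ctnna2, 0.125% of 38486 genes were called (edgeR quasi-likelihood F test, adjusted p under 0.05). Of all 6 members, only Ctnna2 was called in it, which is how it was selected.

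Ctnnd2 gave the same order at its ends, though sperm was not separated. Its LPKM-SSB was 0.374 and 0.371 in bone marrow, 0.445 and 0.466 in liver, 0.476 and 0.449 in heart, 0.5005 and 0.502 in brain, 0.472 and 0.553 in PBMCs, and 0.504 and 0.561 in sperm. Bone marrow lay below every other library, and the mean in sperm was 1.43 times that in bone marrow. Ctnna3, which has the most positions, was flatter: bone marrow had 0.254 and 0.294, sperm 0.292 and 0.374, and the other 8 libraries 0.312 to 0.345. The sperm to bone marrow ratio of Ctnna3 was 1.22. Both bone marrow libraries fell below the other 10 in 4.43% of the 3230 genes with enough SSB positions, and both sperm libraries rose above the other 10 in 5.02%. Among all 236 genes longer than 500 kb, bone marrow had the lowest mean in 65.7% and sperm the highest in 63.6%, with a median ratio of sperm to bone marrow of 1.25 in SSBs. Both held together, as in Ctnna2 and Ctnnd2, in 112 of the 236 (47.5%). The ratios of these 2 genes were above the median, and between the ends their tissue orders differed.

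Among the short genes, bone marrow had the lowest mean LPKM-SSB in Ctnna1 (0.370) and Ctnnd1 (0.449) but the highest in Ctnnb1 (1.19), and sperm was the highest in none. LPKM-SSB of Ctnna1 was 0.273 and 0.468 in bone marrow, 0.330 and 0.418 in liver, 0.367 and 0.415 in brain, 0.379 and 0.410 in heart, 0.393 and 0.449 in sperm, and 0.360 and 0.529 in PBMCs. Every tissue of Ctnna1 overlapped bone marrow, and no neighbours in the order of its means differed beyond their spread. Ctnnd1 had 0.485 and 0.413 in bone marrow, 0.445 and 0.599 in sperm, 0.499 and 0.628 in heart, 0.927 and 0.273 in PBMCs, 0.811 and 0.641 in liver, and 0.731 and 0.723 in brain. Its brain and liver libraries lay above its bone marrow, sperm and heart libraries, while the PBMC libraries held both its highest and its lowest value. Ctnnb1 ran the other way from the long genes in its means, with 0.965 and 1.41 in bone marrow, 0.744 and 1.17 in heart, 1.02 and 0.693 in brain, 0.820 and 0.844 in PBMCs, 0.744 and 0.906 in liver, and 0.984 and 0.662 in sperm. Both bone marrow libraries of Ctnnb1 lay above its PBMC and liver libraries and overlapped those of the other tissues; its sperm libraries held 10 and 5 positions. The ratio of sperm to bone marrow was 1.14 in Ctnna1, 1.16 in Ctnnd1 and 0.694 in Ctnnb1.

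AP sites were not used in the choice, and here the tissues could be tested. In AP libraries Ctnna2 again had its lowest values in bone marrow, 0.303 and 0.348. The other tissues had 0.389 and 0.375 in PBMCs, 0.394 and 0.419 in brain, 0.379 and 0.409 in heart, 0.471 and 0.366 in liver, and 0.375 and 0.426 in sperm. Both bone marrow libraries were thus below the other 10, which was so in 1.34% of the 5440 genes with enough AP positions and in no other member. The difference from the mean of the other 5 tissues was -0.35 on the log2 scale (SE 0.095), with an unadjusted p of 0.00027 that ranked 15 among 41374 genes, and the adjusted p of edgeR's quasi-likelihood test was 0.740. It did not pass the threshold, and it shrank to -0.20 without AP bone marrow replicate 1. A lowest mean in bone marrow was not particular to Ctnna2. Bone marrow also had the lowest mean LPKM-AP in Ctnna3, and in 121 of the 236 genes longer than 500 kb (51.3%).

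No member passed a test of AP sites between tissues. The edgeR quasi-likelihood F test across the 6 tissues called 0% of 41374 genes (0 genes, with 1219 at an unadjusted p under 0.05, and 1 by DESeq2), and the adjusted p of each member was 0.99999. The contrasts of bone marrow, brain and sperm against the other 5 tissues also called 0% of genes in either direction. For brain, where Ctnna2 and Ctnnd2 are best known to be expressed, the log2 differences were 0.12 (SE 0.091) for Ctnna2, 0.032 (SE 0.088) for Ctnna3 and -0.0094 (SE 0.092) for Ctnnd2. For sperm they were 0.057 (SE 0.091), 0.029 (SE 0.087) and 0.050 (SE 0.090) in the same order. Both sperm libraries were above the other 10 in 1.08% of genes and in no member. Ctnnd2 was the flattest of all, with LPKM-AP tissue means of 0.495 to 0.526, and the means of Ctnna3 ran from 0.316 in bone marrow to 0.343 in liver. In neither gene did neighbouring tissues differ beyond the spread of their 2 libraries. Ctnna1 had its lowest LPKM-AP in PBMCs (0.315 and 0.337), but a sperm library was lower (0.313) and the other sperm library was its highest (0.557). Ctnnd1 had 0.829 and 0.604 in liver, from 29 and 20 positions, above all its other AP libraries (0.425 to 0.586). The share of all genes with both liver libraries above the other 10 was not counted, so this is not read as a trait of Ctnnd1. Ctnnb1 had 1.37 and 0.936 in bone marrow, 1.07 and 1.06 in heart, 1.18 and 0.760 in PBMCs, 0.531 and 1.201 in liver, 0.818 and 0.673 in brain, and 0.728 and 0.594 in sperm. The log2 difference of Ctnnb1 was 0.31 (SE 0.26) in bone marrow and -0.47 (SE 0.29) in sperm, neither past the threshold. With errors of this size, a change of Ctnnb1 smaller than its replicate spread was not detectable at this depth.

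Pooled by length, the long genes carried fewer lesions per kb than the short ones in every library, although single pairs of genes differed from this. The pooled density of Ctnna2, Ctnna3 and Ctnnd2 divided by that of Ctnna1, Ctnnd1 and Ctnnb1 ranged from 0.541 to 0.889 over the 12 SSB libraries, with a median of 0.721, and from 0.643 to 0.939 over the 12 AP libraries, with a median of 0.816. It was below 1 in 12 of 12 libraries of each lesion. The exceptions among single genes were mainly with Ctnna1: Ctnnd2 was denser than Ctnna1 in 11 of 12 libraries of each lesion, and Ctnna2 in 5 of 12 SSB and 7 of 12 AP libraries. Ctnnd2 was also denser than Ctnnd1 in 2 of 12 SSB and 6 of 12 AP libraries. Against Ctnnb1, the 3 long genes were denser in 0 of 12 libraries of either lesion. The same ratio for all 236 genes longer than 500 kb against all 20897 protein-coding genes shorter than 200 kb had a median of 0.659 in SSBs and 0.698 in AP sites, so the pooled contrast of the catenins has the direction of that over all genes. By tissue, the ratio in SSBs was lowest in bone marrow (0.613 ± 0.10, SD, n = 2) and highest in sperm (0.849 ± 0.057). For all genes it was 0.540 ± 0.033 and 0.777 ± 0.0025 in the same tissues.

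**Figure D2:**
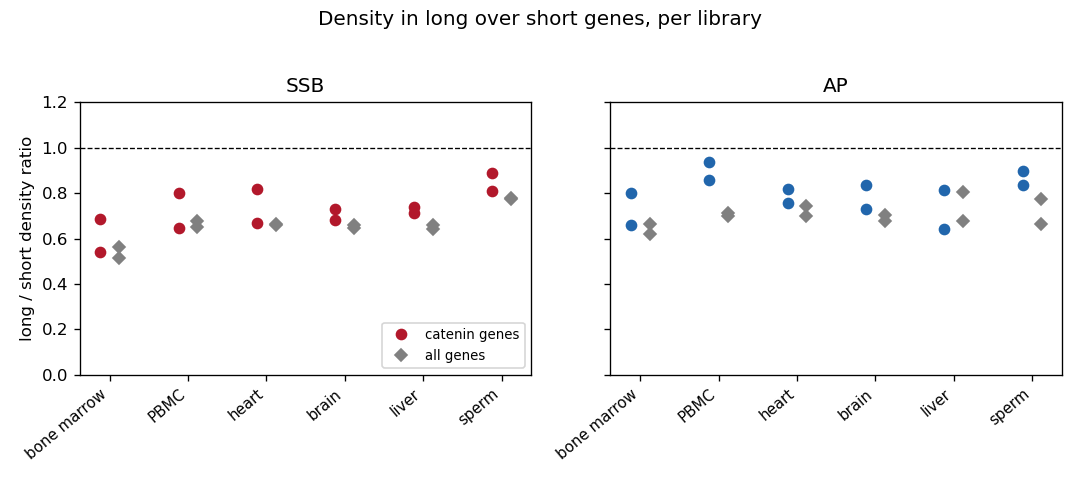
Ratio of the pooled lesion density of the long catenin genes (Ctnna2, Ctnna3, Ctnnd2) to that of the short ones (Ctnna1, Ctnnd1, Ctnnb1), 1 coloured point per library, beside the ratio of all genes over 500 kb to protein-coding genes under 200 kb (grey diamonds); the dashed line is at 1. All 24 coloured points lie below 1, from 0.541 to 0.939.

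Along the long genes the density was uneven, most of all in Ctnna3. When each gene was cut into 10 equal parts from its start, part 4 of Ctnna3 held 393 SSB positions (0.453 LPKM) and part 9 held 174 (0.2004 LPKM), a ratio of 2.26. The parts were picked from the SSBs; the AP sites in the same parts numbered 673 and 284, a ratio of 2.37, and part 4 exceeded part 9 in 12 of 12 libraries of each lesion. In Ctnnd2 part 1 was the sparsest in SSBs (0.360 LPKM-SSB) and part 8 the densest (0.577). There was no steady rise between them, with 0.476 in part 2 and 0.400 in part 5. Its AP sites were also densest in part 8 (0.638). Ctnna2 was the most even, with 0.330 in part 3 and 0.450 in part 7, a ratio of 1.37 in SSBs and 1.51 in AP sites. In windows of 100 kb, SSB and AP densities along the gene were correlated with a Pearson r of 0.945 over 15 windows in Ctnna3, 0.844 over 10 in Ctnna2 and 0.847 over 8 in Ctnnd2. Over the 10 equal parts r was 0.957 in Ctnna3, 0.909 in Ctnnd2 and 0.690 in Ctnna2, beside a median of 0.863 over the 236 genes longer than 500 kb, and the sparsest part of Ctnnd2 was part 1 in SSBs and part 3 in AP sites. The windows share their sequence, its base composition and how well reads map there, and these were not tested. For all 236 genes over 500 kb, the median ratio between the densest and the sparsest part was 1.87 in SSBs, so Ctnna3 lay above and Ctnna2 and Ctnnd2 below the middle of such genes. This ratio and r also depend on how many positions a gene holds, and the 236 genes were not matched for that.

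**Figure D3:**
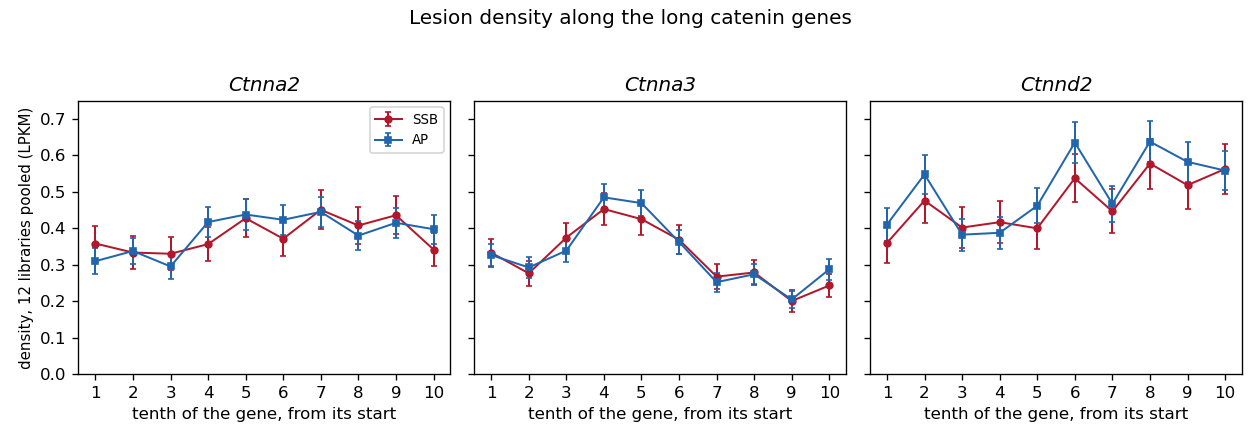
Density of SSBs (circles) and AP sites (squares) in LPKM in 10 equal parts of the 3 long catenin genes, from the start of each gene, with the 12 libraries of a lesion pooled; bars are 95% counting intervals by the normal approximation. Ctnna3 peaks in part 4 (0.453 in SSBs, 0.485 in AP sites) and is lowest in part 9, and Ctnna2 is flatter in both lesions.

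Other genes lie inside the catenin spans. Lrrtm3, which encodes a leucine-rich synaptic adhesion protein and lies within Ctnna3 on the other strand (chr10:63928497-64090255), covers 10.3% of the span but held 15.4% of its SSB and 16.9% of its AP positions. Density inside Lrrtm3 exceeded that in the rest of Ctnna3 in 12 of 12 libraries of each lesion, with medians of 0.486 against 0.305 LPKM-SSB and 0.559 against 0.310 LPKM-AP. Lrrtm3 lies mostly in part 4 of Ctnna3, the densest part above, so these are largely the same positions. Part 5, mostly outside Lrrtm3, had 0.425 LPKM-SSB and 0.469 LPKM-AP. Whether the density goes with Lrrtm3 or with this stretch of Ctnna3 was not tested. Lrrtm1 in Ctnna2 and Lrrtm2 in Ctnna1, of the same family, covered 2.80% and 4.43% of the spans and held 3.16% and 5.39% of the SSB positions. Gm46617 overlaps an edge of Ctnna1, which lies at chr18:35118902-35254776. The noncoding genes in Ctnna2 (6330415B21Rik and Gm38837), in Ctnna3 (Gm30644) and in Ctnnd2 (Gm31953, Gm41284, Gm24487, Gm31841, Gm41283, Gm52177 and 9630009A06Rik), and Mir7090 in Ctnnb1, held 0 to 221 positions each. Reads in an overlap cannot be assigned to either gene, and leaving the overlaps out gave a sperm to bone marrow ratio in SSBs of 1.78 for Ctnna2, 1.28 for Ctnna3 and 1.40 for Ctnnd2.

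Split into the same 10 parts, the AP sites, which were not used in the choice, were denser in sperm than in bone marrow in 10 parts of Ctnna2, 7 of Ctnnd2 and 6 of Ctnna3. For SSBs the counts were 10, 10 and 7, from the same positions as the whole-gene levels above. The parts of a gene come from the same libraries and are not replicates. Sperm and bone marrow were themselves picked from SSB levels. Over the whole genes, the ratio of sperm to bone marrow in AP sites was 1.23 in Ctnna2, 1.06 in Ctnnd2 and 1.07 in Ctnna3. Its median over the 236 genes longer than 500 kb was 1.07. Counts of parts were not made for those genes. The first 10 kb after the start held 1.19 times the density of the rest of the gene for SSBs in Ctnna2, 1.24 times in Ctnna3 and 1.36 times in Ctnnd2, from 22 to 35 positions. In Ctnnb1 and Ctnnd1 the first 10 kb had 0.674 and 0.681 times the SSB density of the rest, from 39 and 24 positions. For AP sites the ratio was 1.27 in Ctnna2, 1.45 in Ctnna3, 1.19 in Ctnnd2, 0.885 in Ctnnb1 and 0.321 in Ctnnd1. These ratios rest on few positions, carry no test and were not computed for other genes.

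Strand gave a further comparison that the choice of members did not use. Whether the strand in the files names the broken strand or the strand read was not stated in the sources used here, so positions are given as on the gene's own strand or on the opposite one. In SSBs Ctnna2 had 1236 positions on its own and 1074 on the opposite strand (53.5%), Ctnna3 1464 and 1331 (52.4%), Ctnnd2 1161 and 1059 (52.3%), Ctnnd1 146 and 96 (60.3%) and Ctnnb1 83 and 55 (60.1%). Ctnna1 was not in the strand test. All 5 tested members leaned to their own strand. Per library the own-strand share of Ctnna2 ran from 46.3% (heart replicate 1) to 61.8% (PBMC replicate 1), with 9 of 12 libraries above 50%.

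Across all 25415 genes tested, own-strand excess was common: the median log2 difference was 0.18, with 64.5% of genes positive, 2.51% called higher on their own strand and 0.063% lower (edgeR quasi-likelihood test, adjusted p under 0.05). Against this background Ctnna2 was called, with a log2 difference of 0.20 (SE 0.062, adjusted p = 0.044), which is close to the median of all genes. The call was lost when any 1 of 6 SSB libraries was left out (brain replicate 1, heart replicate 2, liver replicate 1, liver replicate 2, PBMC replicate 1 or sperm replicate 1, with adjusted p from 0.067 to 0.207), at equal depth (adjusted p = 0.540) and by DESeq2 (adjusted p = 0.080). Ctnnd1 (0.60, SE 0.19, adjusted p = 0.065) and Ctnnb1 (0.58, SE 0.26, adjusted p = 0.302) had larger differences and wider errors, and did not pass. Ctnnd1 passed in edgeR's test without SSB bone marrow replicate 2 (adjusted p = 0.039) or SSB brain replicate 1 (adjusted p = 0.024). It also passed with the filter of nonzero in 80% of libraries (adjusted p = 0.044). That filter called 797 of 17944 genes higher, a larger share than the 638 of 25415 in the main fit. Ctnna3 (0.14, SE 0.056) and Ctnnd2 (0.13, SE 0.063) had adjusted p of 0.226 and 0.333.

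AP sites were closer to balance. Own-strand shares were 51.0% in Ctnna2, 53.0% in Ctnna3, 51.7% in Ctnnd2, 52.5% in Ctnnd1 and 48.4% in Ctnnb1. Of 26017 genes, 0.05% were called higher and 0.00769% lower on their own strand, and the median log2 difference was 0.0050. No member was called, the smallest adjusted p being that of Ctnna3 (0.17, SE 0.047, adjusted p = 0.137 in edgeR's test), whose own strand held more AP sites in 11 of 12 libraries.

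**Figure D4:**
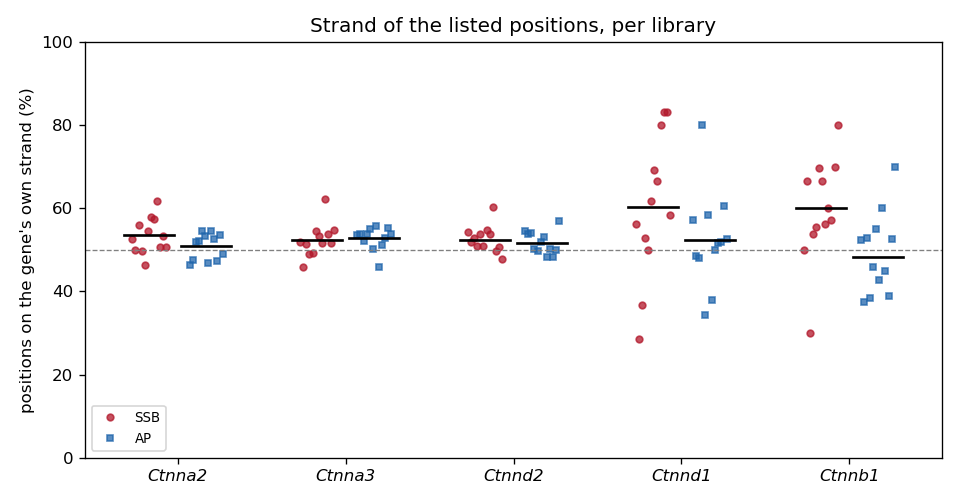
Share of positions on the gene's own strand, in percent, for SSBs (circles) and AP sites (squares) in 5 catenin genes, with 1 point per library and a black bar at the share over all 12 libraries; the dashed line is at 50%. The long genes sit near the line, between 52.3% and 53.5% in SSBs, and Ctnnd1 and Ctnnb1, with few positions, spread from 28.6% to 83.3%.

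SSBs and AP sites of the same sample were set against each other per gene. The log2 difference of SSBs from AP sites was -0.13 (SE 0.061) in Ctnna2, -0.14 (SE 0.058) in Ctnna3 and -0.20 (SE 0.061) in Ctnnd2, and 0.095 (SE 0.13) in Ctnnd1, -0.089 (SE 0.12) in Ctnna1 and -0.088 (SE 0.17) in Ctnnb1. Of 41210 genes, 0.155% were called higher and 0.59% lower in SSBs, with a median of -0.078. No member passed, the nearest being Ctnnd2 (adjusted p = 0.083 in edgeR's test). With DESeq2, Ctnnd2 (adjusted p = 0.011) and Ctnna3 (adjusted p = 0.035) were called lower in SSBs. Of all 41210 genes, DESeq2 called 374 lower and 7 higher, against 243 lower and 64 higher by edgeR, so its calls were more one-sided. The balance depends on scaling: of the genes called, 20.8% were higher in SSBs with TMM and 62.4% with library totals alone. Under library totals the log2 differences were -0.040 in Ctnna2, -0.046 in Ctnna3, -0.11 in Ctnnd2, -0.0071 in Ctnna1, 0.18 in Ctnnd1 and 0.00049 in Ctnnb1, where the sign turned, so the values above rest largely on the TMM scaling. Sample by sample, the ratio of LPKM-SSB to LPKM-AP ranged from 0.747 to 1.14 in Ctnnd2, from 0.755 to 1.195 in Ctnna2 and from 0.793 to 1.04 in Ctnna3.

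Of 42 partner genes of the cadherin-catenin complex and the Wnt pathway (9 cadherins, 6 other armadillo proteins, 11 linkers to actin and nectins, 7 members of the beta-catenin destruction complex and 9 nuclear partners), 0 passed any of the AP tests across tissues. The mean LPKM-SSB of the 42 had a median of 0.701 and ran from 0.329 to 1.43. Bcl9l, a nuclear co-activator of beta-catenin, was the 1 partner called between lesions, with a log2 difference of 0.61 (SE 0.15, adjusted p = 0.0095) towards SSBs. In SSB strand 4 of 26 partners with a strand were called, all on their own strand: Tcf7l2, a transcription factor of the Wnt pathway (0.54, SE 0.098, adjusted p = 2.6e-05), Afdn, the actin linker afadin (0.73, SE 0.17, adjusted p = 0.0029), Nectin3, a nectin (0.67, SE 0.19, adjusted p = 0.019), and Vcl, the actin linker vinculin (0.59, SE 0.18, adjusted p = 0.0499), all by edgeR's test. In total 22 of the 26 were positive, with a median of 0.30, but 0 of the 3 cadherins with a strand. The 638 genes called higher over all genes are the 2.51% given above. Whether these 4 calls hold under the alternatives is not given here, and that of Vcl lies close to the threshold.

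The genes whose SSB pattern over the 12 libraries was most like each long catenin were found by the Pearson correlation of log2 LPKM among 3230 genes, as a description. For Ctnna2 they were Tenm2 (r = 0.954), which encodes a teneurin adhesion receptor, Kcnd2 (r = 0.927), a potassium channel subunit, and Cadps2 (r = 0.916), a secretion activator. For Ctnna3 they included Arhgap24 (r = 0.886), a GTPase-activating protein, and Ncoa1 (r = 0.844), a nuclear receptor co-activator. For Ctnnd2 they were Lrrc7 (r = 0.899), a postsynaptic density protein, Cntn4 (r = 0.896), an adhesion molecule of neurons, and Ptprd (r = 0.876), a receptor phosphatase. The libraries share depth and tissue across genes. Ctnna2 and Ctnnd2 themselves correlated at 0.793 over the same 12 libraries, Ctnna2 and Ctnna3 at 0.737, and Ctnna3 and Ctnnd2 at 0.673. With Ctnna2, Ctnna3 and Ctnnd2 in turn, Ctnna1 correlated at 0.238, 0.448 and 0.490, and Ctnnd1 at 0.304, 0.458 and -0.016. Ctnna1 and Ctnnd1 had medians of 20 and 16 SSB positions per library, so counting error weighs more on their values. These SSB levels chose the members and carry no test.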

How the data were processed

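SSBs and AP sites were profiled by the authors with their nucleotide-level sequencing methods, and 1 list per library was deposited, giving position, strand and a raw count of reads at each position; the aligner and filters for these lists were not given in the sources used here. The submitters' processing notes name the builds mm10 and GRCm38. RNA profiles and other ages were not analysed here. The members and the lists were chosen with earlier results of these data known.

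Each listed position was counted once, on either strand, over the whole span of each of 49943 RefSeq genes (GRCm38.p6, autosomes and both sex chromosomes), so that overlapping genes share positions. LPKM was 1e+09 times the positions of a gene over the product of its length and the library total. Tests used edgeR 4.0.16 in R 4.3.3 (quasi-likelihood, TMM, genes nonzero in at least 20% of libraries, Benjamini-Hochberg adjustment over all genes, threshold 0.05) and DESeq2 1.42.0 as an alternative. The test of SSBs against AP sites had the tissue sample as a block, since the labels say that both libraries came from the same sample; strand tests had the library as a block, library totals for scaling, and the strand of 27025 genes from the RefSeq promoter table. Standard errors were the log2 difference divided by the square root of F, an approximation. SSB levels across tissues were not tested for members, since they chose them. The scripts were tested on simulated data. Named were the members, the genes overlapping them, the 3 genes most correlated with each long member over SSB libraries, and partner genes past a threshold. A gene that this rule selects is not reported here.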

Additional observations from a re-analysis of the deposited data

How the results depend on the processing

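In the tests with counts of called genes, no catenin gene was called for AP sites between tissues or by strand under any alternative. No catenin gene called in either fit changed direction, but the genes called for SSBs against AP sites turned from 64 higher and 243 lower to 108 higher and 65 lower with library totals alone, and to 7 higher and 0 lower at equal depth. Few genes were called for AP sites: 1 across tissues and 1 for bone marrow by DESeq2, against 0, and 0 to 2 across tissues and 0 to 1 for brain with a library left out. For SSBs against AP sites, 307 genes were called in the main fit. The alternatives called 359 without the filter on low counts, 381 by DESeq2, 173 with library totals alone and 7 at equal depth. Catenin genes called there numbered 0, 1 without the filter on low counts (Ctnnd2), 2 by DESeq2, and 0 to 1 with a sample left out (Ctnnd2 without brain replicate 2, PBMC replicate 2 or sperm replicate 1). For SSB strand, 654 genes were called, 820 with the stricter filter, 499 by DESeq2, 135 at equal depth and 471 to 650 with a library left out. Catenin genes called for SSB strand numbered 1, 2 with the stricter filter, 0 at equal depth and 0 by DESeq2, and 0 to 2 with a library left out. For AP strand, 15 genes were called, 1 at equal depth, 0 by DESeq2, 9 with no replicate block and 6 to 20 with a library left out, falling to 9 without brain replicate 1, 6 without PBMC replicate 1, 8 without PBMC replicate 2 and 9 without sperm replicate 1. The cause of these changes was not tested, beyond the fewer positions at equal depth. In 100 kb windows the ratio of the densest to the sparsest part of Ctnna3 was 2.73 for SSBs and 2.92 for AP sites. The ratio of sperm to bone marrow in SSBs ran from 1.62 to 1.94 in Ctnna2 and from 1.07 to 1.37 in Ctnna3 with a library left out.

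The replicate numbers were used as a replicate block for the AP tests between tissues, where 0 genes were called and Ctnna2 had a log2 difference of -0.35 in bone marrow (adjusted p = 0.585). Deviations of same-numbered AP libraries from their tissue means correlated at -0.19 to 0.13 over 15 pairs of tissues. SSB and AP libraries of the same sample correlated at -0.035 to 0.031, so this check could not show whether the numbers mark a shared source. Library totals alone was the scaling of the strand tests, so that alternative does not apply there. Depth limits the short members most, with medians of 9.5 SSB positions per library in Ctnnb1 and 16 in Ctnnd1.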
